A study of Homo sapiens with 9 samples.

Results

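HepG2, a human line that the study describes as hepatocellular carcinoma, was grown here in low-glucose DMEM with fetal bovine serum. Of 39 genes for enzymes, activators and membrane proteins of the lysosome, chosen by symbol, 38 were listed in both count tables, out of 13017 genes in the sh1-*TUG1* table and 12953 in the sh2-*TUG1* table. *CTSZ* was in neither table and was not analysed here. The members were 6 cathepsins, 2 other soluble lysosomal hydrolases of proteins, 10 glycosidases, 5 sulfatases, 6 lipid hydrolases and activators, a ribonuclease, progranulin, 6 membrane proteins and the transcription factor *TFEB*. Libraries came from 3 groups of 3. The sh-Con cells carried a control shRNA and were labelled wild type, and the sh1-*TUG1* and sh2-*TUG1* cells carried different shRNAs against the long noncoding RNA *TUG1* and were labelled *TUG1* knockdown. All 3 lines had been made with lentivirus from a vector whose shRNA is switched on by doxycycline. The replicates are described as technical, so the SD and p-values cover the spread between these libraries and may not cover that between cultures, and each hairpin was a line of its own, so hairpin and line cannot be told apart. *TUG1* itself was not analysed here, so the labels were not checked against the targeted transcript.

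Lysosomes are acidic organelles that break down proteins, glycans, lipids and nucleic acids delivered by endocytosis and autophagy. Most soluble lysosomal enzymes are made in the endoplasmic reticulum, receive a mannose 6-phosphate tag in the Golgi and are carried onward by receptors for that tag, whereas the membrane proteins are sorted by short motifs in their cytosolic tails. TFEB and its relatives TFE3 and MITF bind an E-box in the promoters of many lysosomal genes and are kept in the cytosol when mTORC1 is active on the lysosomal surface. In hepatocytes lysosomes also handle cholesterol esters from lipoproteins and glycogen, and inherited loss of single enzymes causes the storage diseases.

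Because TFEB is known to bind such an E-box, the RefSeq promoter windows (GRCh38.p14, 300 bases from 250 before to 50 after a gene start) were searched for CACGTG and for the longer TCACGTGA, both of which read the same on either strand, so every TCACGTGA is also counted as a CACGTG. Windows were found for 29 of the 38 members, and a gene counted as a holder where any of its windows held the letters. CACGTG was present for 8 of 29 members (27.6%), against 12.7% of 9354 genes in both count tables and 8.77% of 27305 genes in the promoter table. TCACGTGA was present for 4 of 29 members (13.8%), against 2.37% and 1.18%. The 8 holders are shown with the E-box in capitals, 26 bases each in the direction of the gene. The first 4 hold TCACGTGA and lie at chr20:45891300-45891325 (+ strand), chr17:80101495-80101520 (+), chr13:113297201-113297226 (+) and chr19:7522573-7522598 (+). The other 4 hold CACGTG alone and lie at chr11:1763959-1763984 (− strand), chr6:31862932-31862957 (−), chr5:78986103-78986128 (−) and chr12:55729174-55729199 (−).
CTSA: cgccggagtTCACGTGActcgtacac
GAA: gaggccgcgTCACGTGAcccaccgcg
LAMP1: cccgcgggaTCACGTGAcgcccgggc
MCOLN1: cagaggcggTCACGTGAggggctctg
CTSD: cggccgcgccCACGTGaccggtccgg
NEU1: gctgcgtgatCACGTGggaggagatg
ARSB: attcaataagCACGTGactaaaggat
CD63: gggtaggggcCACGTGgccctggccg
The middle of each E-box shown lay 22 to 177 bases before the RefSeq start of its window, and the *LAMP1* window held 6 CACGTG matches. These starts can differ from those of GENCODE 29, the annotation used below for gene positions. The stretches of *CTSA*, *CTSD* and *CD63* lie inside the GENCODE 29 spans of those genes. *CD63* has 8 windows, of which 1 held the letters, and *ARSB* has 2, of which 1 did. The match is a description of letters and says nothing of binding in these cells.

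Levels are given as CPM, counts per 1000000 counts of the TMM-normalized library, with all 9 libraries scaled together. The 38 members together took 8604 to 8676 CPM in sh-Con, 9191 to 9242 CPM in sh1-*TUG1* and 9200 to 9399 CPM in sh2-*TUG1*. Neither knockdown range overlapped the control range. Abundant genes weigh most in such a sum, and single members moved both ways, as given below. The mean of *CTSB* was 1436 CPM in sh-Con, 1446 CPM in sh1-*TUG1* and 1755 CPM in sh2-*TUG1*. Divided by the length of the union of the gene's exons, the highest level in sh-Con was that of *PSAP*, the precursor of the saposins, at 328 CPM per kilobase, followed by the aspartic protease *CTSD* at 203 CPM per kilobase and the cysteine protease *CTSB* at 193 CPM per kilobase. The lowest level per kilobase was that of *TFEB*, at 1.19 CPM per kilobase in sh-Con. *ARSG* at 2.70 CPM per kilobase and the calcium channel gene *MCOLN1* at 3.56 CPM per kilobase came next. A member's counts in a single library ran from 177 for *TFEB* to 65758 for *CTSB*.

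In sh1-*TUG1* cells more members were called higher than lower, while the 2 largest changes, of *RNASET2* and *ARSG*, were falls. By the quasi-likelihood test of edgeR, with p-values adjusted after Benjamini and Hochberg across every gene of the table and called under 0.05, 20 of 38 members were higher than in sh-Con, where 12.5% of all genes were called higher, and 6 were lower, where 12.3% were called lower. In either direction 26 were called, where 24.8% of all genes were. The median log2(fold change) of the members was 0.18, against 0.0027 over all genes, and 29 of 38 were positive. By the criteria for DEGs, a fold change over 1.5 with an adjusted p under 0.05, 0 members were higher (2.44% of all genes) and 2 were lower (2.52%), *RNASET2* and *ARSG*. In 24 members all 3 sh1-*TUG1* libraries lay above all 3 sh-Con libraries, which held for 21.3% of all genes, and in 7 they lay below, which held for 20.4%. The number called higher depended on the libraries. It was 12 without sh-Con replicate 2, 13 without sh-Con replicate 3, 11 without sh1-*TUG1* replicate 1 and 9 without sh1-*TUG1* replicate 2, with 9.16%, 9.25%, 8.35% and 7.81% of all genes called higher. The median stayed between 0.16 and 0.19 when each library was left out in turn. Of the 26 calls, 14 passed in all of these fits, and those lost in at least 1 were *CTSA*, *TPP1*, *GLA*, *GLB1*, *HEXA*, *MAN2B1*, *MANBA*, *FUCA1*, *IDS*, *ASAH1*, *PSAP* and *GM2A*.

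In sh2-*TUG1* cells the members moved both ways. At an adjusted p under 0.05, 14 of 38 were higher, where 21.6% of all genes were called higher, and 11 were lower, where 21.9% were called lower. In either direction 25 were called, where 43.5% of all genes were. The median log2(fold change) was 0.092, against −0.0048 over all genes, and 22 of 38 were positive. The DEGs were *MCOLN1*, 1 higher member where 4.35% of all genes were called, and *RNASET2*, *CTSH* and *ARSG*, 3 lower members where 8.97% were called. The sh2-*TUG1* libraries lay above all sh-Con libraries for 17 members (27.1% of all genes) and below them for 12 (27.4%). Of the 25 calls, 18 passed with each library left out in turn, and those lost in at least 1 such fit were *CTSC*, *PPT1*, *GLA*, *IDS*, *ARSA*, *ASAH1* and *GRN*.

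Both comparisons used the same 3 sh-Con libraries, so their calls are not independent of each other. Set side by side, 9 of 38 members were called higher in both lines, where 6.73% of the 12854 genes in both tables were, *CTSA*, *CTSD*, *TPP1*, *GLA*, *NEU1*, *ARSB*, *GRN*, *LAMP1* and *MCOLN1*. Lower in both were 4 members, where 7.1% of those genes were, *CTSH*, *ARSG*, *LIPA* and *RNASET2*. *NAGLU*, *ASAH1* and *GM2A* were higher in sh1-*TUG1* and lower in sh2-*TUG1* (1.25% of those genes), and *IDS* was lower in sh1-*TUG1* and higher in sh2-*TUG1* (0.902%). In sh1-*TUG1* but not sh2-*TUG1*, 8 members were called higher, *GLB1*, *HEXA*, *MAN2B1*, *MANBA*, *FUCA1*, *SGSH*, *PSAP* and *NPC2*, and *CTSL* was called lower. In sh2-*TUG1* but not sh1-*TUG1*, *CTSB*, *PPT1*, *LAMP2* and *CD63* were called higher and *CTSC*, *GAA*, *GUSB* and *ARSA* lower. *SMPD1*, *SCARB2*, *NPC1* and *TFEB* were called in neither line. The shares of all genes called in 1 line only or in neither were not counted. A call in 1 line only is not a difference between the lines. Compared directly, sh2-*TUG1* minus sh1-*TUG1* was 0.0027 (adjusted p = 0.971) for *PSAP*, −0.17 (adjusted p = 0.0606) for *MAN2B1* and 0.12 (adjusted p = 0.127) for *PPT1*.

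**Figure D1:**
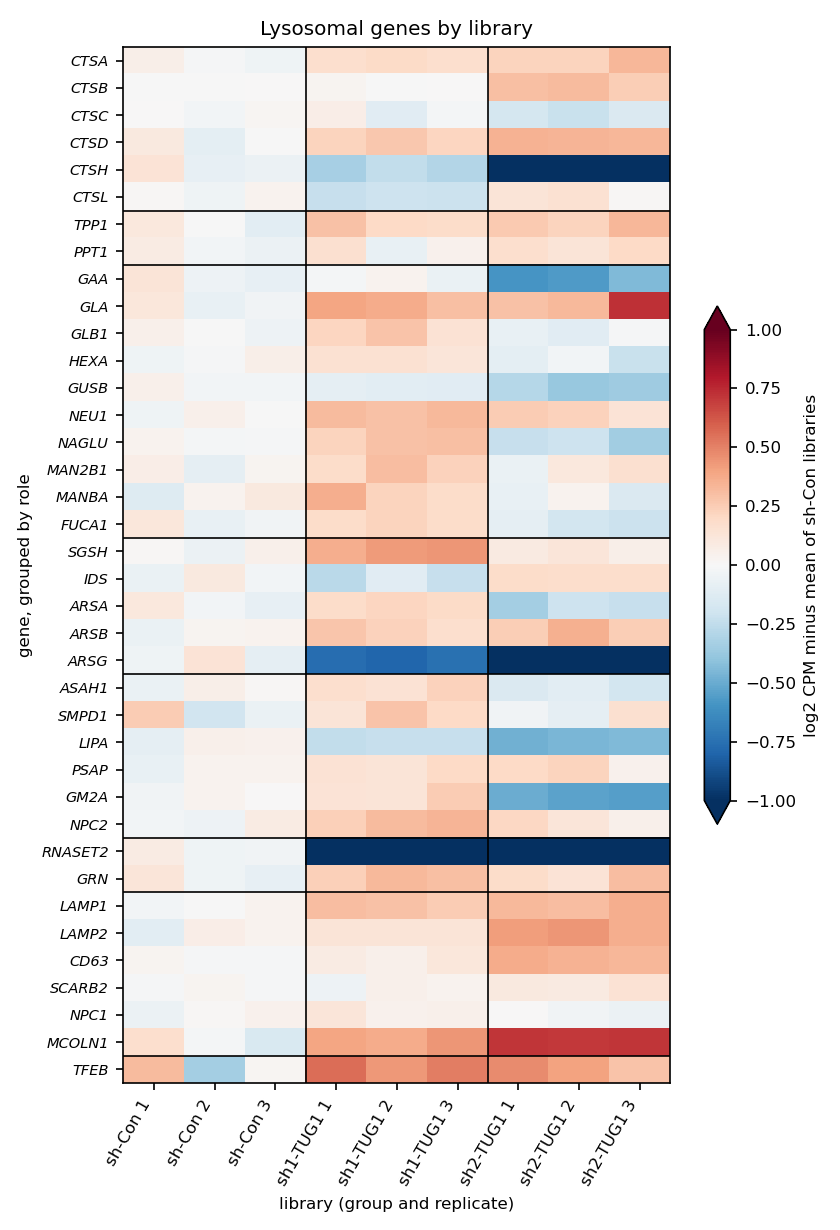
Heat map of the 38 lysosomal genes (rows, grouped by role) in the 9 libraries (columns), as log2 CPM minus the mean of the 3 sh-Con libraries, with the colour scale limited to 1 in either direction. The rows of *RNASET2*, *ARSG* and *CTSH* are the darkest blue in the sh2-*TUG1* columns, and the glycosidase rows are mostly pale red under sh1-*TUG1*, where 8 of 10 were called higher.

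Among the cathepsins, the proteases of the lysosome, *CTSD* rose and *CTSH* fell in both lines. *CTSD*, the aspartic endopeptidase, lies on chromosome 11 (GRCh38 chr11:1752752-1764573). Its counts were 680.1, 595 and 632 CPM in the sh-Con libraries, 740.0, 764 and 735 CPM in the sh1-*TUG1* libraries and 807, 804 and 798 CPM in the sh2-*TUG1* libraries. All 6 knockdown libraries were above all control libraries. *CTSD* thus had a log2(fold change) of 0.23 (SE 0.050, adjusted p = 0.00877) in sh1-*TUG1*, whereas sh2-*TUG1* gave 0.33 (SE 0.052, adjusted p = 7.87e-04). In the annotation (GENCODE 29), 41.7% of the exon bases of *CTSD* also belong to a readthrough gene on the same strand, *AC068580.4*. It was at 20.1 CPM in sh-Con, 6.02 CPM in sh1-*TUG1* and 8.53 CPM in sh2-*TUG1*. Its log2(fold change) was −1.74 (adjusted p = 0.190) in sh1-*TUG1* and −1.24 (adjusted p = 0.254) in sh2-*TUG1*. The division of reads between *CTSD* and *AC068580.4* is uncertain.

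*CTSH*, a cysteine protease that works mainly as an aminopeptidase, was at 233, 201 and 204 CPM in the sh-Con libraries, 169, 179 and 173 CPM in the sh1-*TUG1* libraries and 98.1, 96 and 99.6 CPM in the sh2-*TUG1* libraries. The 3 groups did not overlap, and sh2-*TUG1* was the lowest. Against sh-Con, *CTSH* had −0.29 (SE 0.059, adjusted p = 0.00603) in sh1-*TUG1* and −1.12 (SE 0.062, adjusted p = 1.68e-06) in sh2-*TUG1* as log2(fold change). *CTSA*, the carboxypeptidase that protects neuraminidase and β-galactosidase from degradation, rose from 422 ± 16.3 CPM (SD, n = 3) in sh-Con to 477 ± 4.49 CPM in sh1-*TUG1* and 505 ± 22 CPM in sh2-*TUG1*. On the log2 scale the changes were 0.18 (adjusted p = 0.0110) and 0.26 (adjusted p = 0.00256), and without sh-Con replicate 3 or sh1-*TUG1* replicate 2 the adjusted p was 0.0554 to 0.0576 in sh1-*TUG1*. *CTSA* shares 17.7% of its exon bases with *NEURL2* and 3.4% with *PLTP*, both on the other strand. *NEURL2* had 0.10 (adjusted p = 0.839) in sh1-*TUG1* and 0.11 (adjusted p = 0.811) in sh2-*TUG1*. *PLTP* had −0.21 (adjusted p = 0.168) in sh1-*TUG1* and −1.24 (adjusted p = 4.05e-05) in sh2-*TUG1*.

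The other cathepsins were called in a single line. *CTSB*, a cysteine endopeptidase and carboxypeptidase, was at 1436 ± 4.38 CPM in sh-Con, 1446 ± 18.4 CPM in sh1-*TUG1* and 1755 ± 45.2 CPM in sh2-*TUG1*, with a log2(fold change) of 0.01 (adjusted p = 0.870) and 0.29 (adjusted p = 3.90e-04). *CTSL*, a cysteine endopeptidase, was at 131 ± 3.49 CPM, 112 ± 0.666 CPM and 140.0 ± 7.29 CPM in the same order, with −0.22 (adjusted p = 0.00564) in sh1-*TUG1* and 0.10 (adjusted p = 0.171) in sh2-*TUG1*. *CTSC*, a dipeptidyl peptidase that activates serine proteases of immune cells, had −0.02 (adjusted p = 0.825) and −0.18 (adjusted p = 0.0129), and without sh-Con replicate 3 or sh2-*TUG1* replicate 2 the adjusted p was 0.0508 to 0.0595 in sh2-*TUG1*. The tripeptidyl peptidase *TPP1* was at 332, 308 and 286 CPM (sh-Con), 378, 354 and 350.4 CPM (sh1-*TUG1*) and 370.5, 360.1 and 387 CPM (sh2-*TUG1*). Its knockdown libraries were all above the control libraries and overlapped each other. For *TPP1* the fitted log2(fold change) was 0.22 (SE 0.057, adjusted p = 0.0185) in sh1-*TUG1* cells, and it was 0.27 (SE 0.059, adjusted p = 0.00533) in sh2-*TUG1* cells. In sh1-*TUG1*, without sh-Con replicate 2, sh-Con replicate 3, sh1-*TUG1* replicate 1 or sh1-*TUG1* replicate 2 the adjusted p was 0.0528 to 0.0826. *PPT1*, which removes palmitate from proteins, had 0.05 (adjusted p = 0.650) and 0.16 (adjusted p = 0.0264), and without sh-Con replicate 2, sh-Con replicate 3, sh2-*TUG1* replicate 1 or sh2-*TUG1* replicate 3 the adjusted p was 0.0664 to 0.101 in sh2-*TUG1*. It shares 23.4% of its exon bases with *CAP1* on the other strand.

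The glycosidases, which take sugars off glycoproteins, glycolipids and glycosaminoglycans, had different counts in the 2 lines. In sh1-*TUG1*, 8 of 10 were called higher and 0 lower (12.5% and 12.3% of all genes), with a median log2(fold change) of 0.23. In sh2-*TUG1*, 2 of 10 were called higher and 3 lower (21.6% and 21.9% of all genes), with a median of −0.094. *GLA* and *NEU1* were the 2 that rose in both. *GLA*, the α-galactosidase whose loss causes Fabry disease, was at 12.7, 11.2 and 11.5 CPM in the sh-Con libraries, 15.4, 15.2 and 14.5 CPM in the sh1-*TUG1* libraries and 14.4, 14.8 and 19.5 CPM in the sh2-*TUG1* libraries. The knockdown libraries were above the control libraries, and sh2-*TUG1* replicate 3 was the highest. *GLA* thus had a log2(fold change) of 0.35 (SE 0.088, adjusted p = 0.0174) in sh1-*TUG1*, whereas sh2-*TUG1* gave 0.46 (SE 0.13, adjusted p = 0.0157). For *GLA* in sh1-*TUG1*, without sh-Con replicate 2, sh-Con replicate 3, sh1-*TUG1* replicate 1 or sh1-*TUG1* replicate 2 the adjusted p was 0.0585 to 0.0667, and in sh2-*TUG1* without sh-Con replicate 2 the adjusted p was 0.0516.

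*NEU1*, the lysosomal sialidase, was at 403, 429.9 and 415 CPM (sh-Con), 517, 509 and 519 CPM (sh1-*TUG1*) and 496, 488 and 458 CPM (sh2-*TUG1*). Every knockdown library exceeded every control library, and the sh2-*TUG1* libraries lay below those of sh1-*TUG1*. Against sh-Con, *NEU1* had 0.31 (SE 0.040, adjusted p = 5.92e-04) in sh1-*TUG1* and 0.21 (SE 0.049, adjusted p = 0.00797) in sh2-*TUG1* as log2(fold change). *NAGLU*, an enzyme of heparan sulfate breakdown, was at 77.5, 74.7 and 75.1 CPM (sh-Con), 88.5, 92.7 and 93.4 CPM (sh1-*TUG1*) and 64.6, 65.7 and 59.4 CPM (sh2-*TUG1*). The sh1-*TUG1* libraries were above and the sh2-*TUG1* libraries below the control libraries, with no overlap. For *NAGLU* the fitted log2(fold change) was 0.27 (SE 0.048, adjusted p = 0.00311) in sh1-*TUG1* cells, and it was −0.26 (SE 0.057, adjusted p = 0.00501) in sh2-*TUG1* cells.

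The remaining glycosidases are described by their changes. *MAN2B1* and *MANBA*, an α- and a β-mannosidase, had log2(fold change) values of 0.24 (adjusted p = 0.0185) and 0.25 (adjusted p = 0.0313) in sh1-*TUG1*, and 0.07 (adjusted p = 0.503) and −0.06 (adjusted p = 0.513) in sh2-*TUG1*. *MAN2B1* shares 13.1% of its exon bases with *AC010422.3* on the same strand, which was at 32.0 CPM in sh-Con. The division of reads between *MAN2B1* and *AC010422.3* is uncertain. *GLB1*, the lysosomal β-galactosidase, had 0.21 (adjusted p = 0.0140) in sh1-*TUG1* and −0.07 (adjusted p = 0.325) in sh2-*TUG1*. *HEXA*, the α subunit of β-hexosaminidase, had 0.14 (adjusted p = 0.0411) and −0.12 (adjusted p = 0.132) in the same order. *FUCA1*, an α-fucosidase, had 0.19 (adjusted p = 0.0427) and −0.17 (adjusted p = 0.0718). The sh1-*TUG1* calls of these 5 were each lost on leaving out at least 3 of the 6 libraries in turn, with adjusted p-values of 0.0506 to 0.155 (*MAN2B1*: sh-Con 2, sh1-*TUG1* 2 and sh1-*TUG1* 3; *MANBA*: sh-Con 2, sh1-*TUG1* 1 and sh1-*TUG1* 2; *GLB1*: sh-Con 3, sh1-*TUG1* 1 and sh1-*TUG1* 2; *HEXA*: sh-Con 2 and each sh1-*TUG1* library; *FUCA1*: each library but sh-Con 1). *GAA*, which frees glucose from glycogen, was at 172 ± 13.9 CPM in sh-Con, 169.7 ± 5.93 CPM in sh1-*TUG1* and 119 ± 6.83 CPM in sh2-*TUG1*, with −0.02 (adjusted p = 0.846) and −0.54 (adjusted p = 2.27e-04). *GUSB*, β-glucuronidase, had −0.10 (adjusted p = 0.186) and −0.34 (adjusted p = 0.00135).

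The sulfatases, which remove sulfate from glycosaminoglycans and sulfatide, went in both directions in both lines, with 2 of 5 called higher and 2 of 5 lower in each, where 12.5% and 12.3% of all genes were in sh1-*TUG1* and 21.6% and 21.9% in sh2-*TUG1*. *ARSG*, a sulfatase of heparan sulfate on chromosome 17 (chr17:68259182-68422731), was at 17.2, 19.5 and 16.6 CPM in the sh-Con libraries, 10.4, 10.2 and 10.6 CPM in the sh1-*TUG1* libraries and 7.69, 7.03 and 8.50 CPM in the sh2-*TUG1* libraries. The control libraries were the highest and the sh2-*TUG1* libraries the lowest, with no overlap. *ARSG* thus had a log2(fold change) of −0.77 (SE 0.090, adjusted p = 3.11e-04) in sh1-*TUG1*, whereas sh2-*TUG1* gave −1.20 (SE 0.11, adjusted p = 3.13e-05). Its exons overlap those of *SLC16A6* by 144 bases and of *WIPI1* by 828 bases, both on the other strand. *SLC16A6*, a monocarboxylate transporter, fell with log2(fold change) values of −2.10 (adjusted p = 5.50e-07) in sh1-*TUG1* and −2.01 (adjusted p = 1.21e-06) in sh2-*TUG1*, and *WIPI1*, an autophagy gene, had −0.36 (adjusted p = 0.00178) and −0.03 (adjusted p = 0.689). The library kit and counting are not stated to keep the strand, so reads of these genes within the shared bases cannot be told apart, and *ARSG* is uncertain.

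*ARSB*, which acts on dermatan and chondroitin sulfate, was at 114, 122 and 122 CPM (sh-Con), 145, 141 and 135 CPM (sh1-*TUG1*) and 142, 153 and 142 CPM (sh2-*TUG1*). All knockdown libraries were above all control libraries. Against sh-Con, *ARSB* had 0.23 (SE 0.050, adjusted p = 0.00974) in sh1-*TUG1* and 0.28 (SE 0.054, adjusted p = 0.00251) in sh2-*TUG1* as log2(fold change). *IDS*, the iduronate sulfatase, was at 85.6 ± 5.09 CPM in sh-Con, 74.3 ± 4.18 CPM in sh1-*TUG1* and 96.8 ± 0.310 CPM in sh2-*TUG1*, with −0.21 (adjusted p = 0.0388) and 0.17 (adjusted p = 0.0315). Without sh-Con replicate 2, sh-Con replicate 3, sh1-*TUG1* replicate 1 or sh1-*TUG1* replicate 3 the adjusted p of *IDS* in sh1-*TUG1* was 0.0582 to 0.140, and without sh-Con replicate 1, sh-Con replicate 3, sh2-*TUG1* replicate 1, sh2-*TUG1* replicate 2 or sh2-*TUG1* replicate 3 that in sh2-*TUG1* was 0.0596 to 0.0991. *SGSH*, the sulfamidase of heparan sulfate, rose in sh1-*TUG1* with 0.41 (adjusted p = 6.40e-04) and had 0.09 (adjusted p = 0.228) in sh2-*TUG1*. *ARSA*, which acts on sulfatide, had 0.19 (adjusted p = 0.0545) in sh1-*TUG1* and −0.26 (adjusted p = 0.0154) in sh2-*TUG1*, where without sh2-*TUG1* replicate 1 the adjusted p was 0.0653.

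Of the 6 genes for lipid hydrolases and their activators, 4 rose and 1 fell in sh1-*TUG1* (12.5% and 12.3% of all genes), compared with 0 and 3 in sh2-*TUG1* (21.6% and 21.9% of all genes). *LIPA*, the acid lipase that frees cholesterol and fatty acids from lipoprotein cholesterol esters and triglycerides, fell in both lines. Its counts were 263, 289.5 and 289 CPM in the sh-Con libraries, 236, 238 and 239 CPM in the sh1-*TUG1* libraries and 201, 204 and 206 CPM in the sh2-*TUG1* libraries. No library of one group overlapped another group. For *LIPA* the fitted log2(fold change) was −0.24 (SE 0.048, adjusted p = 0.00603) in sh1-*TUG1* cells, and it was −0.46 (SE 0.052, adjusted p = 1.08e-04) in sh2-*TUG1* cells. *GM2A*, the activator protein for breakdown of the ganglioside GM2, was at 48.8, 51.2 and 50.1 CPM (sh-Con), 54.9, 54.8 and 59.7 CPM (sh1-*TUG1*) and 35.4, 34.5 and 34.2 CPM (sh2-*TUG1*). The sh1-*TUG1* libraries lay above and the sh2-*TUG1* libraries below the control libraries. *GM2A* thus had a log2(fold change) of 0.17 (SE 0.057, adjusted p = 0.0491) in sh1-*TUG1*, whereas sh2-*TUG1* gave −0.53 (SE 0.055, adjusted p = 6.66e-05). The sh1-*TUG1* call of *GM2A* was lost on leaving out each of the 6 libraries, at an adjusted p of 0.0708 to 0.201, and with DESeq2 (adjusted p = 0.0515).

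*ASAH1*, acid ceramidase, was at 272 ± 12.1 CPM in sh-Con, 308 ± 10.0 CPM in sh1-*TUG1* and 246 ± 6.89 CPM in sh2-*TUG1*, with log2(fold change) values of 0.18 (adjusted p = 0.0223) and −0.15 (adjusted p = 0.0383). Without sh-Con replicate 3, sh1-*TUG1* replicate 1, sh1-*TUG1* replicate 2 or sh1-*TUG1* replicate 3 its adjusted p in sh1-*TUG1* was 0.0517 to 0.0984, and without sh-Con replicate 2, sh-Con replicate 3, sh2-*TUG1* replicate 1, sh2-*TUG1* replicate 2 or sh2-*TUG1* replicate 3 that in sh2-*TUG1* was 0.0700 to 0.132. *PSAP* was at 1062 ± 47.8 CPM, 1183 ± 30.9 CPM and 1186 ± 78.5 CPM in the order sh-Con, sh1-*TUG1* and sh2-*TUG1*, with 0.16 (adjusted p = 0.0309) and 0.16 (adjusted p = 0.0530). For *PSAP* in sh1-*TUG1*, without sh-Con replicate 2, sh1-*TUG1* replicate 1, sh1-*TUG1* replicate 2 or sh1-*TUG1* replicate 3 the adjusted p was 0.0515 to 0.129. *NPC2*, which carries cholesterol inside the lysosome, rose in sh1-*TUG1* with 0.30 (adjusted p = 0.00360) and had 0.12 (adjusted p = 0.130) in sh2-*TUG1*. *SMPD1*, acid sphingomyelinase, had 0.19 (adjusted p = 0.221) and 0.00 (adjusted p = 0.984).

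*RNASET2*, the ribonuclease of the lysosome and the member with the largest change in either line, lies on chromosome 6 (chr6:166929504-166957191). Its counts were 270.1, 247 and 249 CPM in the sh-Con libraries, 111, 105 and 108 CPM in the sh1-*TUG1* libraries and 75.2, 79.3 and 71.8 CPM in the sh2-*TUG1* libraries. The groups did not overlap, and mean CPM fell from 256 ± 12.7 (SD, n = 3) in sh-Con to 108 ± 3.31 in sh1-*TUG1* and 75.4 ± 3.76 in sh2-*TUG1*. Against sh-Con, *RNASET2* had −1.24 (SE 0.049, adjusted p = 5.38e-07) in sh1-*TUG1* and −1.76 (SE 0.058, adjusted p = 1.61e-07) in sh2-*TUG1* as log2(fold change). The level was thus 0.423 and 0.295 times that of the control, and it stayed past the fold change of 1.5 in every alternative fit run. *GRN*, the precursor of the granulins, was at 347, 309.5 and 301 CPM (sh-Con), 377, 398 and 392 CPM (sh1-*TUG1*) and 362, 351 and 395 CPM (sh2-*TUG1*). The knockdown libraries were above the control libraries. For *GRN* the fitted log2(fold change) was 0.29 (SE 0.055, adjusted p = 0.00495) in sh1-*TUG1* cells, and it was 0.21 (SE 0.065, adjusted p = 0.0265) in sh2-*TUG1* cells. In sh2-*TUG1*, without sh-Con replicate 2, sh-Con replicate 3, sh2-*TUG1* replicate 1 or sh2-*TUG1* replicate 3 the adjusted p was 0.0579 to 0.0937 for *GRN*.

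Of the 6 membrane proteins, 2 were called higher in sh1-*TUG1* (12.5% of all genes) and 4 in sh2-*TUG1* (21.6%), with 0 lower in either line (12.3% and 21.9%), and the median log2(fold change) was 0.10 and 0.34. *MCOLN1*, the calcium channel TRPML1 of the lysosomal membrane, lies on chromosome 19 (chr19:7522626-7534009) and was at 15.7, 13.9 and 12.6 CPM in the sh-Con libraries, 18.5, 18.2 and 19 CPM in the sh1-*TUG1* libraries and 23.1, 22.9 and 23 CPM in the sh2-*TUG1* libraries. The 3 groups did not overlap, and the sh2-*TUG1* libraries were the highest. *MCOLN1* thus had a log2(fold change) of 0.40 (SE 0.092, adjusted p = 0.0118) in sh1-*TUG1*, whereas sh2-*TUG1* gave 0.71 (SE 0.089, adjusted p = 2.27e-04). It shares 6 exon bases with *PNPLA6* on the same strand, which was at 41.1 CPM in sh-Con. *PNPLA6* also rose, with 0.38 (adjusted p = 8.45e-04) in sh1-*TUG1* and 1.05 (adjusted p = 1.58e-06) in sh2-*TUG1*. Whether reads of *PNPLA6* were counted for *MCOLN1* was not tested. *LAMP1*, an abundant glycoprotein that lines the lysosomal membrane, was at 371, 375 and 385 CPM (sh-Con), 466, 462 and 450.3 CPM (sh1-*TUG1*) and 472, 468 and 484 CPM (sh2-*TUG1*). All knockdown libraries were above all control libraries. Against sh-Con, *LAMP1* had 0.29 (SE 0.039, adjusted p = 7.07e-04) in sh1-*TUG1* and 0.33 (SE 0.042, adjusted p = 2.55e-04) in sh2-*TUG1* as log2(fold change).

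*LAMP2*, its relative that also serves chaperone-mediated autophagy, was at 244 ± 15.4 CPM in sh-Con, 267 ± 0.638 CPM in sh1-*TUG1* and 324 ± 9.16 CPM in sh2-*TUG1*, with log2(fold change) values of 0.12 (adjusted p = 0.106) and 0.40 (adjusted p = 3.96e-04). The tetraspanin *CD63* was at 265 ± 3.97 CPM, 281 ± 6.56 CPM and 338 ± 4.25 CPM, with 0.08 (adjusted p = 0.165) and 0.35 (adjusted p = 1.62e-04). *SCARB2*, the receptor that carries β-glucocerebrosidase to the lysosome, had 0.01 (adjusted p = 0.852) and 0.11 (adjusted p = 0.0702). *NPC1*, the cholesterol exporter, had 0.07 (adjusted p = 0.296) and −0.03 (adjusted p = 0.602). *TFEB* was at 6.74 ± 1.52 CPM in sh-Con, 9.40 ± 0.429 CPM in sh1-*TUG1* and 8.67 ± 0.573 CPM in sh2-*TUG1*, with 0.48 (adjusted p = 0.0548) and 0.36 (adjusted p = 0.108). For *TFEB* in sh1-*TUG1*, DESeq2 gave an adjusted p of 0.0215 and a model of the full 9 libraries 0.0332, so its call depended on the fit.

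**Figure D2:**
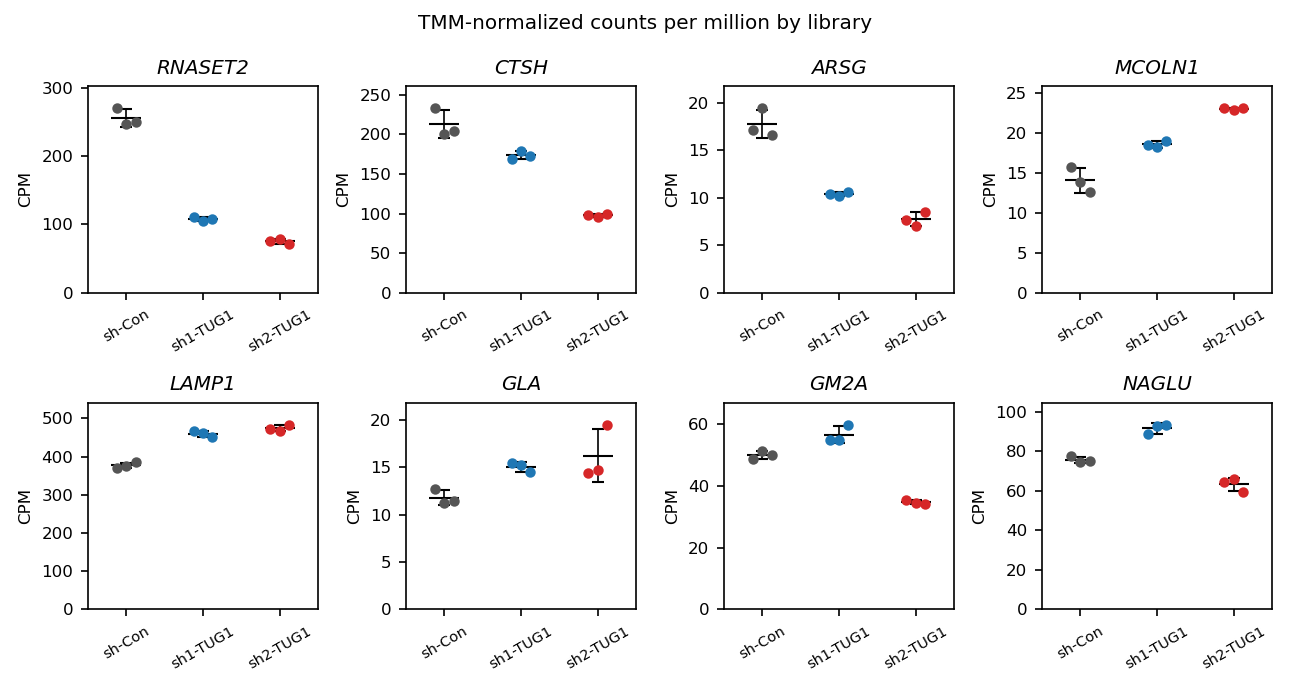
TMM-normalized CPM of 8 lysosomal genes in each library (points), with the mean and SD of the 3 libraries of each group (bars), on axes that start at 0. *RNASET2*, *CTSH* and *ARSG* step down from sh-Con to sh1-*TUG1* to sh2-*TUG1*, *MCOLN1* steps up, *LAMP1* and *GLA* are higher in both knockdown lines, and *GM2A* and *NAGLU* are higher in sh1-*TUG1* and lower in sh2-*TUG1*.

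Among the members with a promoter window, the 8 with CACGTG had a median log2(fold change) of 0.23 in sh1-*TUG1*, where 6 were called higher and 0 lower, and of 0.31 in sh2-*TUG1*, where 7 were called higher and 1, *GAA*, lower. The 21 members without CACGTG had a median of 0.071 in sh1-*TUG1*, with 8 higher and 6 lower. In sh2-*TUG1* their median was 0.0032, with 5 higher and 7 lower. Over all genes, 12.5% were called higher and 12.3% lower in sh1-*TUG1*, and 21.6% and 21.9% in sh2-*TUG1*. Among the 21 without CACGTG were *RNASET2*, *CTSH*, *ARSG* and *LIPA*, the 4 that fell in both lines. Members with no window are in neither group. Of those, *HEXA*, *NAGLU*, *MANBA*, *SGSH*, *ASAH1* and *PSAP* were called higher in sh1-*TUG1*. In sh2-*TUG1*, *CTSB* and *LAMP2* were called higher, and *NAGLU*, *ASAH1* and *ARSA* lower. The 2 groups of promoters were not compared by a test. Calls of the other genes with CACGTG were not counted, and the members were chosen with earlier results known.

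**Figure D3:**
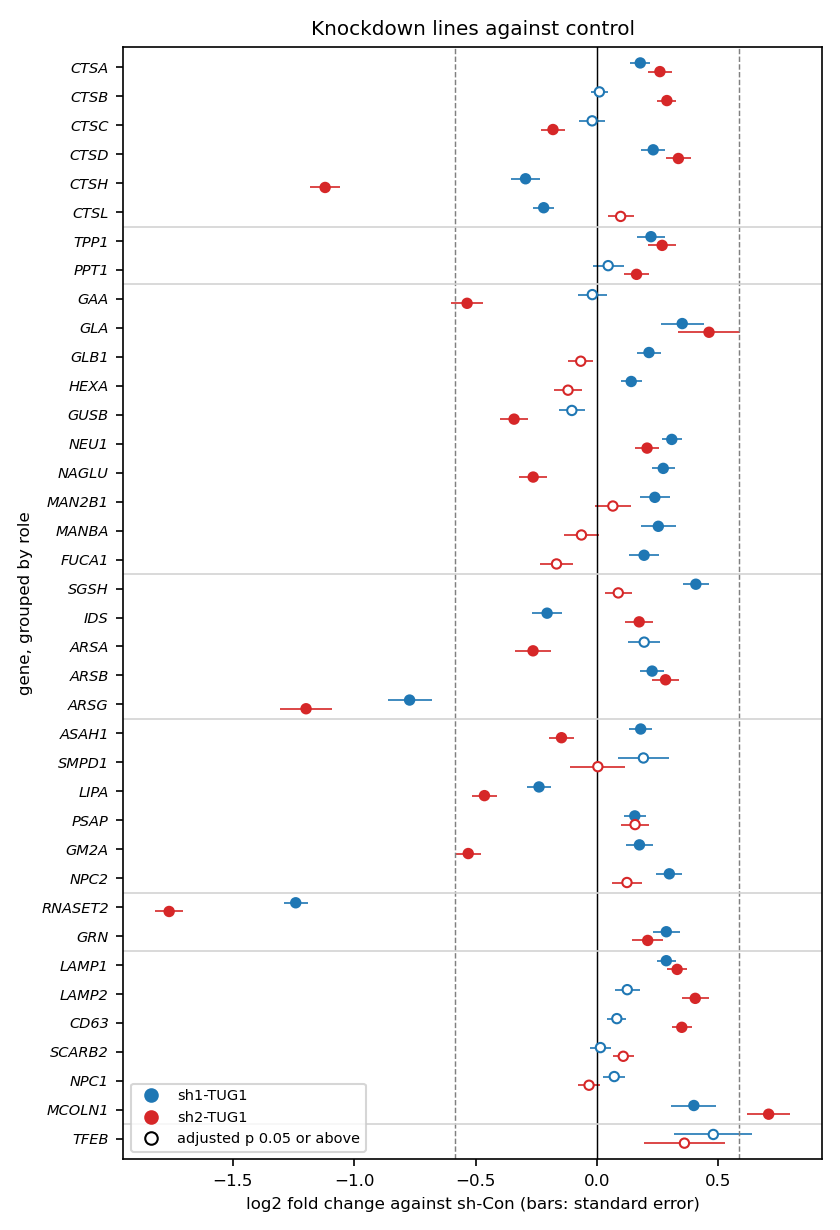
Log2(fold change) against sh-Con of the 38 lysosomal genes (grouped by role) in sh1-*TUG1* (blue) and sh2-*TUG1* (red), with standard errors as bars, open points where the adjusted p was 0.05 or above, and dashed lines at a fold change of 1.5. Both points lie left of the dashed line for *RNASET2* and *ARSG*, the sh2-*TUG1* point does for *CTSH*, and *MCOLN1* alone passes the right line, in sh2-*TUG1*.

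To ask whether the knockdown lines differed from each other, their libraries were compared directly, in a model that also held the controls. Of 38 members, 6 were higher in sh2-*TUG1*, where 21% of all genes were called higher, and 17 were lower, where 21.7% were called lower, together 23, where 42.7% were called. The median log2(fold change) was −0.14, against −0.00067 over all genes. By the criteria for DEGs, 0 members were higher (2.56% of all genes) and 2 were lower (8.04%), *CTSH* and *GM2A*. The sh2-*TUG1* libraries lay above all sh1-*TUG1* libraries for 10 members (27.8% of all genes) and below them for 20 (27.6%). With library size alone in place of TMM, 6 members were higher and 20 lower, and the share of higher genes among all genes called went from 49.2% to 35.1%. Of the 23 calls, 21 passed with each library left out in turn. The exceptions were *CTSC*, where without sh1-*TUG1* replicate 1, sh1-*TUG1* replicate 3, sh2-*TUG1* replicate 1 or sh2-*TUG1* replicate 2 the adjusted p was 0.0572 to 0.112, and *NPC2*, where without sh1-*TUG1* replicate 2, sh1-*TUG1* replicate 3, sh2-*TUG1* replicate 2 or sh2-*TUG1* replicate 3 the adjusted p was 0.0657 to 0.0898.

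Between the lines, 7 of 10 glycosidases were called lower in sh2-*TUG1*, where 21.7% of all genes were, with the differences on the log2 scale led by *NAGLU* at −0.53 (adjusted p = 1.02e-05) and *GAA* at −0.51 (adjusted p = 5.34e-05). *GLB1*, *HEXA*, *GUSB*, *MANBA* and *FUCA1* were lower by smaller amounts, from −0.36 for *FUCA1* to −0.24 for *GUSB*. Among the lipid genes 4 of 6 were called lower, led by *GM2A* at −0.70 (SE 0.053, adjusted p = 1.53e-06), which was 56.5 ± 2.82 CPM in sh1-*TUG1* and 34.7 ± 0.629 CPM in sh2-*TUG1*. *CTSH* differed by −0.82 (SE 0.057, adjusted p = 8.52e-07) and *RNASET2* by −0.52 (SE 0.052, adjusted p = 1.36e-05). Of the sulfatases, *ARSA* at −0.46 (adjusted p = 1.74e-04), *ARSG* at −0.42 (adjusted p = 0.00548) and *SGSH* at −0.32 (adjusted p = 3.63e-04) were lower in sh2-*TUG1*.

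The 6 members called higher in sh2-*TUG1* than in sh1-*TUG1* were 2 cysteine proteases, *CTSB* at 0.28 (adjusted p = 5.10e-05) and *CTSL* at 0.32 (adjusted p = 2.20e-04), the sulfatase *IDS* at 0.38 (adjusted p = 2.28e-04), and 3 membrane proteins, *LAMP2* at 0.28 (adjusted p = 5.88e-04), *CD63* at 0.27 (adjusted p = 1.17e-04) and *MCOLN1* at 0.31 (adjusted p = 0.00830). For the members that rose in both lines the difference between the lines was small and did not pass the test, except for *MCOLN1*. It was 0.05 (SE 0.036, adjusted p = 0.321) for *LAMP1*, 0.05 (SE 0.055, adjusted p = 0.519) for *TPP1* and 0.06 (SE 0.049, adjusted p = 0.379) for *ARSB*.

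The other genes of the lysosomal system were taken from 7 lists. Of 32 other lysosomal hydrolases tested in sh1-*TUG1*, 9 rose and 1 fell (12.5% and 12.3% of all genes), whereas of 31 tested in sh2-*TUG1*, 7 rose and 7 fell (22.6% each way, beside 21.6% and 21.9% of all genes). *GGH*, which removes glutamates from folates, rose from 77.8 ± 12 CPM in sh-Con to 129.8 ± 7.28 CPM in sh1-*TUG1* and 296 ± 9.25 CPM in sh2-*TUG1*, with log2(fold change) values of 0.74 (adjusted p = 7.14e-04) and 1.92 (adjusted p = 1.21e-06). *SIAE*, a sialic acid esterase, was at 30.6 ± 1.08 CPM, 27.4 ± 2.12 CPM and 13.1 ± 1.17 CPM, with −0.16 (adjusted p = 0.131) and −1.23 (adjusted p = 4.66e-06). The tartrate-resistant phosphatase *ACP5* rose in sh1-*TUG1* with 1.09 (adjusted p = 0.00721) and had −0.61 (adjusted p = 0.132) in sh2-*TUG1*, at 1.70 ± 0.375 CPM in sh-Con. The cysteine protease *CTSS*, at 1.47 ± 0.610 CPM in sh-Con, had −0.27 (adjusted p = 0.567) and −1.45 (adjusted p = 0.0114), and without sh-Con replicate 3 its adjusted p in sh2-*TUG1* was 0.0526.

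Among 28 other lysosomal membrane proteins, 7 rose and 4 fell in sh1-*TUG1* (25% and 14.3%, beside 12.5% and 12.3% of all genes), compared with 10 and 7 in sh2-*TUG1* (35.7% and 25%, beside 21.6% and 21.9%). *CD68*, a LAMP relative best known from macrophages, fell from 63.7 ± 6.98 CPM in sh-Con to 35.2 ± 1.92 CPM in sh1-*TUG1* and 20.8 ± 3.20 CPM in sh2-*TUG1*, with log2(fold change) values of −0.86 (adjusted p = 8.00e-05) and −1.61 (adjusted p = 6.98e-06). The lipid transporter *ABCA2* fell with −0.58 (adjusted p = 0.00556) and −1.15 (adjusted p = 6.52e-05), and the cation channel *TPCN1* with −0.26 (adjusted p = 0.00721) and −0.70 (adjusted p = 1.54e-05). *SIDT2*, which takes up RNA and DNA into lysosomes, had 0.12 (adjusted p = 0.380) in sh1-*TUG1* and fell in sh2-*TUG1* with −0.85 (adjusted p = 7.30e-04). *LAMP3* rose with 0.30 (adjusted p = 0.0232) and 0.91 (adjusted p = 6.62e-06), and for sh1-*TUG1* without sh-Con replicate 3, sh1-*TUG1* replicate 1 or sh1-*TUG1* replicate 2 the adjusted p was 0.0665 to 0.0838.

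The V-ATPase, the proton pump that acidifies the lysosome, had 5 of 17 subunit genes rise and 0 fall in sh1-*TUG1* (12.5% and 12.3% of all genes), compared with 9 and 1 in sh2-*TUG1* (21.6% and 21.9% of all genes), with a median log2(fold change) of 0.095 and 0.22. The gene that was lower in sh2-*TUG1* was *ATP6V0E2*, at 64.6 ± 6.92 CPM in sh-Con, 86.2 ± 4.62 CPM in sh1-*TUG1* and 39.7 ± 1.15 CPM in sh2-*TUG1*, with 0.42 (adjusted p = 0.00423) and −0.70 (adjusted p = 1.09e-04). Of 26 genes that tag and sort lysosomal enzymes, 4 rose and 2 fell in sh1-*TUG1* (15.4% and 7.7%, beside 12.5% and 12.3% of all genes), compared with 6 and 5 in sh2-*TUG1* (23.1% and 19.2%, beside 21.6% and 21.9%). *SUMF2*, a relative of the enzyme that activates sulfatases, fell with −0.35 (adjusted p = 0.00103) and −0.62 (adjusted p = 2.03e-05). Of 5 cathepsin inhibitors, 1 rose and 2 fell in sh1-*TUG1* (12.5% and 12.3% of all genes), compared with 0 and 4 in sh2-*TUG1* (21.6% and 21.9% of all genes), among them the cystatin *CSTB* with −0.40 (adjusted p = 0.00704) and −0.62 (adjusted p = 3.38e-04). The cystatin *CST3*, named after its values were seen because it passed a fold change of 1.5 between the lines at −0.78 (adjusted p = 5.57e-06), had 0.32 (adjusted p = 0.0119) in sh1-*TUG1* and −0.47 (adjusted p = 9.18e-04) in sh2-*TUG1*.

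Of 19 genes of the TFEB family and of its control by mTORC1, 3 rose and 3 fell in sh1-*TUG1* (15.8% each way, beside 12.5% and 12.3% of all genes), compared with 8 and 0 in sh2-*TUG1* (42.1% and 0%, beside 21.6% and 21.9%). *RRAGC*, a Rag GTPase that recruits mTORC1 to the lysosome, had 0.17 (adjusted p = 0.0365) in sh1-*TUG1* and 0.75 (adjusted p = 2.11e-05) in sh2-*TUG1*, and without sh-Con replicate 2, sh-Con replicate 3, sh1-*TUG1* replicate 1, sh1-*TUG1* replicate 2 or sh1-*TUG1* replicate 3 the adjusted p was 0.0588 to 0.124 in sh1-*TUG1*. *FLCN*, a regulator of the Rag GTPases, rose with 0.36 (adjusted p = 0.00655) and 0.61 (adjusted p = 2.49e-04). *TFE3*, named after its values were seen because it is the relative of *TFEB* in the list that was called, had 0.10 (adjusted p = 0.208) and 0.58 (adjusted p = 9.77e-05). Of 27 autophagy genes, 3 rose and 4 fell in sh1-*TUG1* (12.5% and 12.3% of all genes), with a median of −0.015, compared with 16 and 1 in sh2-*TUG1* (21.6% and 21.9% of all genes), with a median of 0.20. Between the knockdown lines, 13 of these 27 were called higher in sh2-*TUG1* and 1 lower (21% and 21.7% of all genes), and 2, named after their values were seen, passed a fold change of 1.5, *GABARAPL1* at 0.65 (adjusted p = 2.40e-06) and *OPTN* at 0.63 (adjusted p = 5.12e-06). Chosen in the same way, *ATG2A*, *GABARAPL1*, *OPTN* and *ULK1* had the largest rises in sh2-*TUG1*, at 0.58 (adjusted p = 3.22e-05), 0.54 (adjusted p = 5.06e-05), 0.51 (adjusted p = 1.93e-04) and 0.46 (adjusted p = 2.09e-04).

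**Figure D4:**
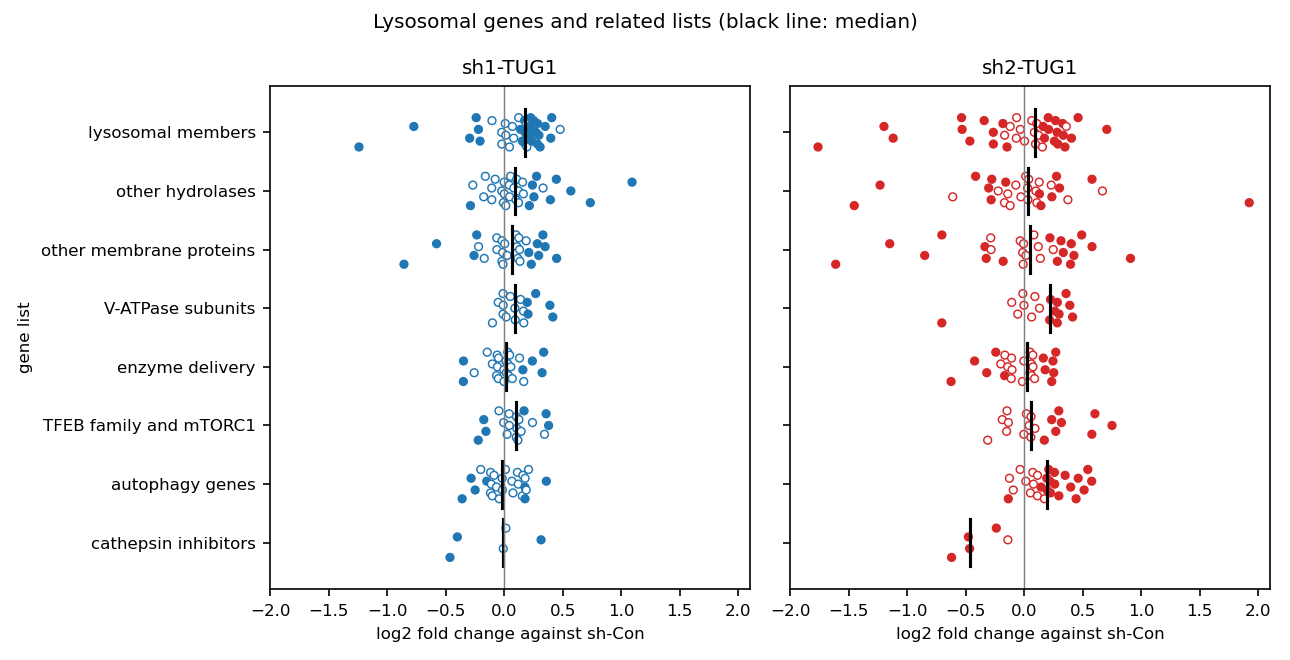
Log2(fold change) against sh-Con of every tested gene (points) of the lysosomal members and the 7 lists of related genes, in sh1-*TUG1* and sh2-*TUG1*, with open points where the adjusted p was 0.05 or above and the median of each list as a line. The medians of the members are 0.18 and 0.092, and those of the autophagy genes −0.015 and 0.20.

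The libraries held 33051617 to 39393293 counts, and replicates of a group differed by more than read sampling. Hepatocyte markers (17 of 17 listed) summed to 46009 to 48441 CPM in sh-Con, 51023 to 53183 CPM in sh1-*TUG1* and 53865 to 57476 CPM in sh2-*TUG1*. Of these markers 7 were called higher and 2 lower in sh1-*TUG1* (41.2% and 11.8%, beside 12.5% and 12.3% of all genes). In sh2-*TUG1* 4 were called higher and 7 lower (23.5% and 41.2%, beside 21.6% and 21.9%). Markers of other liver cells were few. The tables listed 2 of 15 macrophage markers, *CD74* and *FCER1G*, at 34.8 to 46.6 CPM summed in sh-Con, 45.0 to 53.7 CPM in sh1-*TUG1* and 26.2 to 40.4 CPM in sh2-*TUG1*. The immune receptor subunit *FCER1G* had log2(fold change) values of −0.34 (adjusted p = 0.371) in sh1-*TUG1* and −1.16 (adjusted p = 0.00920) in sh2-*TUG1*, the invariant chain *CD74* had 0.34 (adjusted p = 0.0402) and −0.34 (adjusted p = 0.118), and relative to sh1-*TUG1* both were lower in sh2-*TUG1*, with differences of −0.82 (adjusted p = 0.0312) and −0.67 (adjusted p = 0.00379). They listed 3 of 10 fibroblast and stellate markers, at 58.7 to 62.8 CPM, 77.9 to 83.1 CPM and 89.3 to 95.7 CPM, and 2 of 8 endothelial markers, at 8.75 to 9.46 CPM, 11.3 to 12.2 CPM and 12.2 to 13.6 CPM. All 9 libraries are labelled as the single line HepG2, and the part of these markers in the lysosomal changes was not tested. In bulk libraries fewer cells of a type and less RNA per cell cannot be told apart.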

How the data were processed

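RNA-seq of 9 HepG2 libraries (sh-Con, sh1-*TUG1* and sh2-*TUG1*, 3 replicates each by label) was analysed from the tables the authors deposited, 1 per knockdown line. These hold raw read counts per gene, FPKM computed by the authors over the genomic span of the gene, which was only checked against GENCODE 29, and, from the comparison the authors made themselves, a log2 fold change with its false discovery rate, which were not used. HISAT2, StringTie and GRCh38 appear in the submitters' processing notes, with no version. The counter and its use of strand are not given in the sources used here.

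Counts were analysed in R 4.3.3 with edgeR 4.0.16 (TMM, filterByExpr, which removed 0 genes, quasi-likelihood test), on 6 libraries for each line against sh-Con and on 9, over the 12854 genes in both tables, for sh2-*TUG1* against sh1-*TUG1*. Control counts were identical in both tables. DESeq2 1.42.0 was an alternative. CPM values come from the TMM scaling of all 9 libraries. Scripts were tested on simulated data. Totals were 33051617 to 39393293 counts per library, and the 3 technical replicates per group limit the precision.

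The members and lists were chosen with earlier results of these data known. Per-library values are given for members past an adjusted p of 0.05 in both lines or past a fold change of 1.5 in any comparison, for the 14 of 17 with the largest summed absolute change. Genes of the other lists were named where a fold change against sh-Con passed 1.5, at most 5 per list, and others are said to be named after their values were seen. Alternatives were other scaling factors, other filters, DESeq2, the replicate number as a block, other sets of libraries, glmTreat and leaving out each library. *TUG1* and protein sequences were not analysed here.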

Additional observations from a re-analysis of the deposited data

Results flagged for a closer look

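The 2 knockdown lines differed by a test of the difference itself, sh2-*TUG1* against sh1-*TUG1* in edgeR's fit of all 9 libraries, for 23 of 38 members, where 42.7% of all genes did. The values are log2 differences, sh2-*TUG1* minus sh1-*TUG1*, in which the shared control libraries cancel. Among cathepsins and *RNASET2* they were −0.16 for *CTSC*, −0.82 for *CTSH* and −0.52 for *RNASET2*. The glycosidases had −0.51 for *GAA*, −0.28 for *GLB1*, −0.26 for *HEXA*, −0.24 for *GUSB*, −0.53 for *NAGLU*, −0.32 for *MANBA* and −0.36 for *FUCA1*. The sulfatases and the genes of lipid breakdown had −0.32 for *SGSH*, −0.46 for *ARSA*, −0.42 for *ARSG*, −0.32 for *ASAH1*, −0.22 for *LIPA*, −0.70 for *GM2A* and −0.17 for *NPC2*. The members that were higher in sh2-*TUG1* had 0.28 for *CTSB*, 0.32 for *CTSL*, 0.38 for *IDS*, 0.28 for *LAMP2*, 0.27 for *CD63* and 0.31 for *MCOLN1*.

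Of the 14 genes named by rule from the other lists, 13 differed between the lines in the same test, where 42.7% of all genes did. These 14 had been chosen for a large fold change against sh-Con in either line. That choice favours genes that differ between the lines, so the count cannot be compared with the share of all genes. Lower in sh2-*TUG1* were *CTSS* at −1.18, *ACP5* at −1.70, *SIAE* at −1.07, *CD68* at −0.75, *TPCN1* at −0.44, *SIDT2* at −0.97, *ABCA2* at −0.57, *ATP6V0E2* at −1.12 and *SUMF2* at −0.28. Higher in sh2-*TUG1* were *GGH* at 1.19, *LAMP3* at 0.62, *FLCN* at 0.25 and *RRAGC* at 0.58. The difference of *CTSS* was lost without sh2-*TUG1* replicate 3 (adjusted p = 0.0598), and that of *FLCN* without sh2-*TUG1* replicate 1 (adjusted p = 0.05001). *CSTB*, the other named gene, differed by −0.22 (adjusted p = 0.0511). The opposite calls in the 2 lines, *NAGLU*, *GM2A*, *ASAH1* and *IDS*, are among the differences that passed. No cause of any of these differences was tested.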

How the results depend on the processing

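No called value changed direction in any alternative run. Testing the fold change itself against 1.5 with glmTreat left 114 genes called for sh1-*TUG1*, 600 for sh2-*TUG1* and 330 between the lines, with 1 member called in sh1-*TUG1*, 3 in sh2-*TUG1* and 1 between the lines. The members no longer called were *ARSG* in sh1-*TUG1* (adjusted p = 0.443), *MCOLN1*, the single member called higher by fold change, in sh2-*TUG1* (adjusted p = 0.388) and *GM2A* between the lines (adjusted p = 0.149). With library size alone the median of the members was 0.21 (sh1-*TUG1*), 0.057 (sh2-*TUG1*) and −0.20 (between the lines) on the log2 scale, and the members called were 22 higher and 5 lower, 11 higher and 12 lower, and 6 higher and 20 lower. The share of higher genes among all genes called then went from 50.5% to 59.7% for sh1-*TUG1* and for sh2-*TUG1* from 49.7% to 42.8%. RLE factors, DESeq2 and the fits of other sets of libraries kept each count of called genes within 1.5 times. Both other filters kept every gene, so those fits repeated the main one and could not differ from it. Leaving out each library in turn gave 552 to 687 genes called for sh1-*TUG1*, 1601 to 1700 for sh2-*TUG1* and 1227 to 1375 between the lines, 9 to 22 members higher and 5 to 6 lower for sh1-*TUG1*, 11 to 14 and 9 to 11 for sh2-*TUG1*, and 6 to 7 and 15 to 20 between the lines. Their medians ran from 0.16 to 0.19, 0.070 to 0.11 and −0.14 to −0.11, and the members past a fold change of 1.5 numbered 2 to 3, 4 and 2. The replicate numbers did not pair the libraries, since deviations from the group means correlated at −0.19 to 0.050 for equal numbers. With the replicate block, the members called higher and lower numbered 17 and 6 (sh1-*TUG1*), 12 and 10 (sh2-*TUG1*), and 6 and 17 (between the lines). For single genes, 120 calls were lost and 37 gained over all alternatives. Depth limits the lowest members, such as *TFEB* with 177 to 357 counts per library.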

Other observations

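The E-box was also counted in the promoter windows of the related lists. CACGTG was present for 8 of 19 genes of enzyme delivery (42.1%), 6 of 16 genes of the TFEB family and its mTORC1 control (37.5%), 4 of 12 V-ATPase subunit genes (33.3%), 6 of 21 other hydrolases (28.6%), 5 of 25 other membrane proteins (20%), 3 of 25 autophagy genes (12%) and 0 of 3 cathepsin inhibitors (0%), against 12.7% of the genes in both count tables.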
